A study of Homo sapiens with 6 samples.

Results

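Axon guidance ligands and receptors were followed in LX-2, an established human cell line derived from hepatic stellate cells, after exposure to recombinant human BMP9, the product of GDF2. The members were the probe sets that the platform annotation assigned to exactly 1 gene of the ephrin, Eph receptor, semaphorin, plexin, neuropilin, SLIT, ROBO, netrin, UNC5, DCC, netrin-G or LRRC4 families. This gave 210 of the 44988 single-gene probe sets, belonging to 73 of 18132 genes, and all 73 genes were tested without a filter on dim values. Cells of the BMP9 group (3 arrays) spent 12 h in serum-free medium before 24 h with BMP9 at 50 ng/ml. Cells of the control group (3 arrays) shared the line, the serum-free period and the 24 h, with BMP9 at 0 ng/ml. The labels call the samples biological replicates and do not say whether they came from separate cultures, so each p-value reflects only how far these samples scatter, which may be technical. All arrays came from 1 line, and no other stellate cells were measured.

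Guidance molecules were named for steering growing axons, and most of them also act between non-neural cells, where they set adhesion, repulsion and vessel patterning. Ephrins are bound to the membrane and signal through Eph receptor tyrosine kinases on the neighbouring cell, and the ephrin itself can signal backwards into its own cell. Semaphorins act through plexins, for which neuropilins serve as co-receptors with most class 3 semaphorins. SLIT proteins act through ROBO receptors, and netrins through DCC and the UNC5 receptors. The netrin-G proteins are membrane-anchored relatives that bind the netrin-G ligands encoded by LRRC4C and LRRC4. Many of these receptors act on the actin skeleton.

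The values were log2 RMA expression values per probe set, and every difference below is BMP9 minus control on that log2 scale. The median value of the 6 arrays lay between 3.55 and 3.57, and Pearson's r across genes was 0.994 to 0.995 within BMP9, 0.993 to 0.994 within control and 0.991 to 0.993 between the groups. The treatment showed in the BMP target genes SMAD6 (difference 3.01, limma adjusted p = 3.97e-07) and ID3 (difference 1.63, limma adjusted p = 8.65e-05). Of 6 direct BMP targets 4 rose, ID2 among them (difference 1.21, limma adjusted p = 0.0492). The ID2 call was lost without BMP9 replicate 1, 2 or 3 or control replicate 2 (limma adjusted p 0.0812 to 0.182), and with the mean over its probe sets (difference 0.74, limma adjusted p = 0.0780). The chosen probe set of SMAD7 differed by 0.21 and that of ID1 by 0.14 without passing. Another SMAD7 probe set differed by 0.72 with the groups apart and did not pass (limma adjusted p = 0.0603, all probe sets tested). A second ID1 probe set had a difference of 3.21 (limma adjusted p = 1.55e-05, all probe sets tested). The stellate and fibroblast markers COL1A1 (9.79 ± 0.10 with BMP9 and 9.73 ± 0.16 in control, SD, n = 3 each) and VIM (11.25 ± 0.054 and 11.62 ± 0.099 in the same order) were bright. ACTA2 (4.04 with BMP9 and 3.90 in control) and LRAT (4.34 and 4.13 in the same order) lay at levels that background probe sets also reach. Of the 12 stellate markers 2, COL3A1 and PDGFRA, fell. The log2 of the list's summed linear signal was 11.89 to 11.94 on the BMP9 arrays and 12.15 to 12.23 on the control arrays. This sum weighs VIM most, as the brightest marker, and the VIM difference of -0.37 did not pass (limma adjusted p = 0.0786). The median difference over the 12 markers was -0.0076, with 5 above 0 and 7 below. In these bulk samples fewer cells of a type and less RNA per cell cannot be told apart. The part of this shift in the results below was not tested. None of the 9 measured neuron and glia markers, 9 endothelial, 9 hepatocyte, 9 macrophage and leukocyte or 6 cholangiocyte markers passed the test. The files hold no detection calls. The array's own background probe sets are grouped by their number of G and C bases. They averaged 2.02 at 12 such bases, 4.09 at 17, 6.16 at 21 and 10 at 25. The base composition of the members' probes is not given in the sources used here, so a dim value below is not known to lie above background. Nor is COL1A1, whose level the background probe sets with 25 such bases also reach.

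Of the 73 guidance genes 2 were called, both higher with BMP9. LRRC4C, the gene of netrin-G ligand 1, rose by 1.52 and EFNB2, the gene of the membrane ligand ephrin-B2, by 0.47. The LRRC4C call held whichever single array was left out. The EFNB2 call rested on 1 of its 4 probe sets and was lost whichever array was left out. At a limma adjusted p under 0.05, 2 genes were higher, against 0.232% of all 18132 genes tested, and 0 were lower, against 0.452%. Over the 210 probe sets tested singly, 2 were called higher and 0 lower, against 0.133% and 0.302% of all 44988. The members were chosen with earlier results of LRRC4C and EFNB2 known. These counts therefore cannot show whether calls are more frequent among guidance genes than elsewhere. At an unadjusted p under 0.05, 7 guidance genes were higher and 4 lower, which is 9.59% and 5.48% of the 73, beside 6.89% and 5.98% of all genes. The median difference was 0.041 over the guidance genes and 0.014 over all genes, and the median absolute difference was 0.083 and 0.084.

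**Figure D1:**
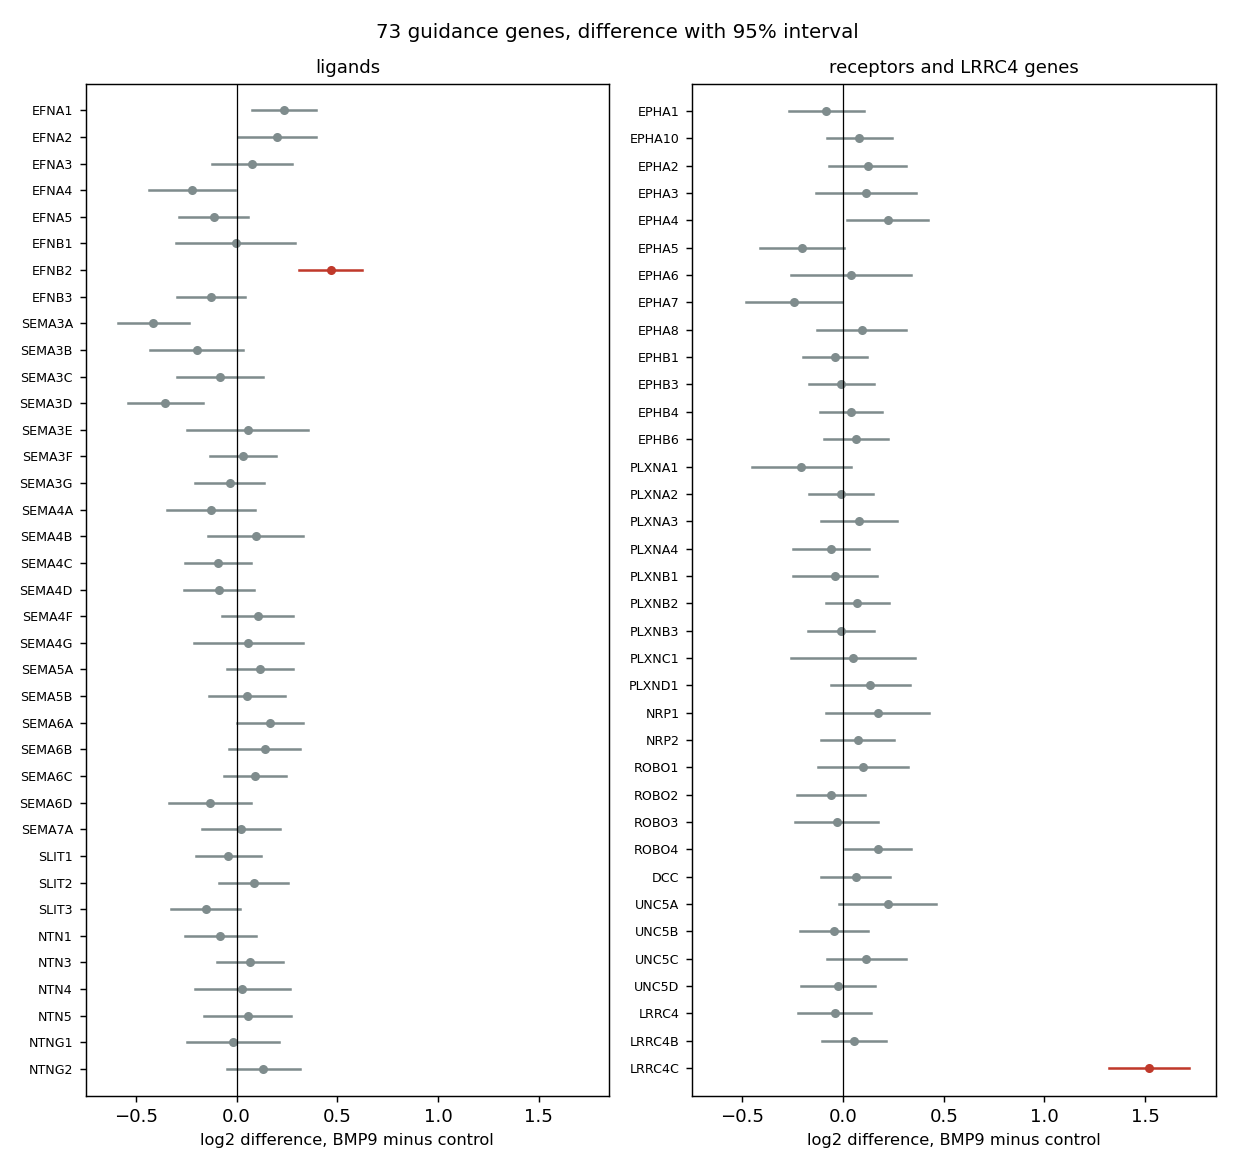
Each point is the log2 difference, BMP9 minus control, of 1 guidance gene's chosen probe set, with its 95% interval from limma (horizontal line); ligands are on the left panel and receptors with the LRRC4 genes on the right. Red marks the genes with an adjusted p under 0.05, LRRC4C at 1.52 and EFNB2 at 0.47; the other 71 genes lie between -0.41 and 0.24.

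The group as a whole was narrow around 0. For 70 of the 73 genes the 95% interval of the difference lay within 1.5-fold in either direction, and LRRC4C was the only gene whose interval reached a 2-fold change. On dim probe sets such an interval bounds the measured signal and not the transcript. The 3 BMP9 arrays lay wholly above the 3 control arrays in 10 guidance genes (13.7%) and wholly below in 5 (6.85%), beside 10.3% and 8.49% of all genes, so these shares were close to the background. Over the single probe sets, 26 of the 210 (12.4%) lay wholly above and 20 (9.52%) wholly below, beside 9.07% and 8.22% of all probe sets. Among the 37 ligand genes the BMP9 arrays lay above in 6 and below in 5. Among the 36 receptor and LRRC4 genes they lay above in 4 and below in 0.

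LRRC4C encodes a leucine-rich repeat adhesion protein that sits on the postsynaptic side in neurons and binds netrin-G1. Its value was 6.81, 6.87 and 6.76 on the BMP9 arrays, against 5.23, 5.46 and 5.18 on the control arrays. The groups were separated by more than the spread within either of them, and the lowest BMP9 array stood above the highest control array by a wide margin. The mean was 6.81 ± 0.054 with BMP9 and 5.29 ± 0.15 in control (SD, n = 3 each), a rise of 1.52 (SE 0.090, 95% interval 1.32 to 1.72), or 2.87-fold (limma adjusted p = 2.38e-05). By size this was rank 4 among the 42 genes called higher on the array. The gene has 1 probe set, so no second probe set bears on the call.

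The relatives and partners of LRRC4C were flat or dim. LRRC4, the gene of netrin-G ligand 2, differed by -0.042 (95% interval -0.23 to 0.14). LRRC4B, the gene of netrin-G ligand 3, differed by 0.055 on its brighter probe set. Its other probe set, at 4.13, 4.21 and 4.29 with BMP9, lay below the control values of 4.65, 4.35 and 4.50, a difference of -0.29 that missed the threshold (limma adjusted p = 0.273, all probe sets tested). NTNG1, whose product netrin-G1 is the binding partner of the LRRC4C protein, stood at 2.61 ± 0.19 with BMP9 and 2.63 ± 0.10 in control (SD, n = 3 each). NTNG2, whose product binds netrin-G ligand 2, stood at 6.12 ± 0.092 with BMP9 and 5.98 ± 0.084 in control, a difference of 0.13 (limma adjusted p = 0.533). Background probe sets also reach these levels, and they reach the LRRC4C levels of both groups too. They averaged 5.23 at 20 G and C bases, 6.16 at 21, 6.65 at 22 and 7.35 at 23. The 2.87-fold rise of LRRC4C is therefore a ratio of measured signals, and neither group's level is known to lie above background.

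**Figure D2:**
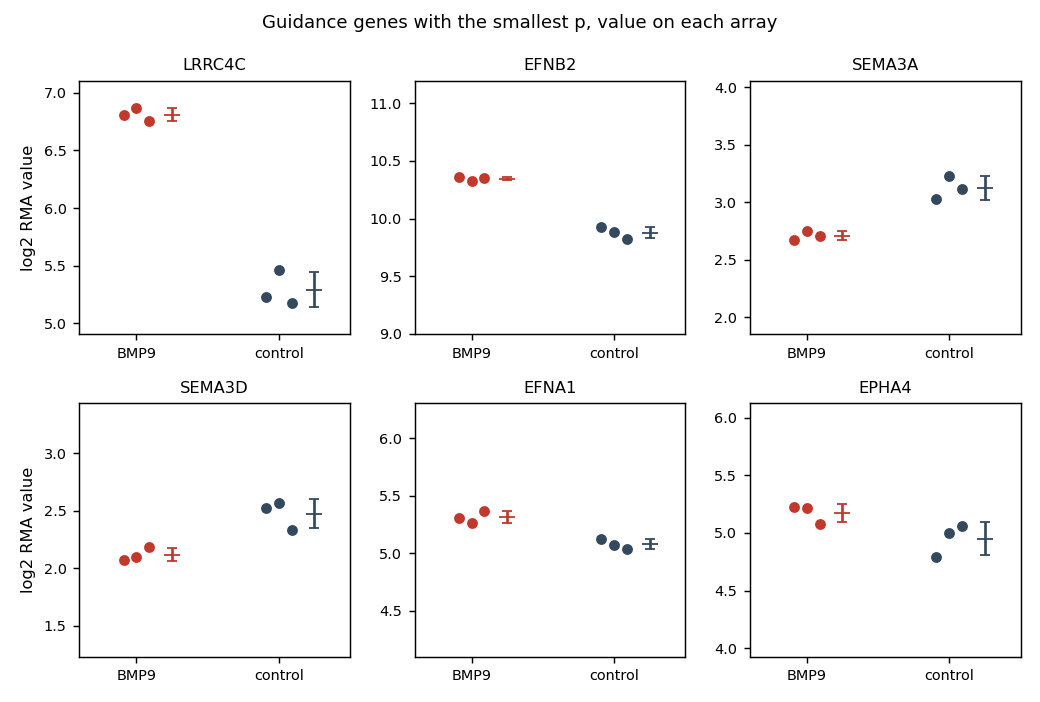
Points are the log2 RMA values of single arrays for the 6 guidance genes with the smallest p, with BMP9 arrays in red on the left and control arrays in dark blue on the right, and the bar beside each group is its mean ± SD (n = 3). Every panel spans the same log2 range; the groups do not overlap in any of the 6, and the gap is widest for LRRC4C (6.81 against 5.29).

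EFNB2 encodes ephrin-B2, a transmembrane ligand best known for marking arterial endothelium and for pairing with EPHB4 on veins. Its brightest probe set read 10.36, 10.33 and 10.35 on the BMP9 arrays, against 9.93, 9.88 and 9.83 on the control arrays. The groups did not overlap, and the BMP9 arrays differed from each other by less than the control arrays did. The rise was 0.47 (SE 0.071, 95% interval 0.31 to 0.63), or 1.38-fold (limma adjusted p = 0.0160), which placed it at rank 31 of the 42 risen genes. Background probe sets with 25 G and C bases averaged 10, near the level of this probe set. They read 0.21 higher on the BMP9 arrays. The base composition of this probe set is not known here, and the part of that shift in the rise was not tested. The gene's other 3 probe sets did not pass, with differences of 0.046, 0.043 and -0.14, on group means between 2.93 and 4.20. The call ended when the mean over the 4 probe sets was used (difference 0.10, limma adjusted p = 0.464). It also ended whichever single array was left out (limma adjusted p 0.0523 to 0.0800), with a difference that stayed between 0.44 and 0.49.

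The promoter window of EFNB2 is shown because it is the called member with an entry in the promoter table. It covers 250 bases before to 50 bases after the annotated start, on the minus strand, at chr13:106535613-106535912 of GRCh38.p14 (sequence from RefSeq). Capitals mark GGCGCC, the letters of the GC-rich element bound by SMAD1 and SMAD5, which reads the same on both strands.
EFNB2 promoter: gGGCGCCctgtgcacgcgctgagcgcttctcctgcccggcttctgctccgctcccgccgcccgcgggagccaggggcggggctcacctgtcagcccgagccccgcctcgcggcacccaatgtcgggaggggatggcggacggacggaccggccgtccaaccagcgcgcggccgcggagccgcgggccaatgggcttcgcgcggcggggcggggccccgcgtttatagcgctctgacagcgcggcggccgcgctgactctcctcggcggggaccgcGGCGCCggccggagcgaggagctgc
The letters occurred at positions 2 and 276, counted from 1 at the 5′ end of the window, and did not overlap another searched motif. Of 27305 promoter windows of the same length, 19.0% held GGCGCC at least once, as did 18 of the 61 windows of guidance genes in the table (29.5%). The EFNB2 window was 78.7% G and C, against a median of 58.3% over all windows, and base composition alone moves how often such letters occur. The SMAD box CAGACA and the E-box CAGCTG, searched on both strands, were not in this window; 16.8% and 17.7% of all windows held them. These are matches of letters and not measured binding sites.

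The measured receptors of ephrin-B2 showed no call. EPHB4, its main partner, stood at 6.77 ± 0.013 with BMP9 and 6.72 ± 0.039 in control (SD, n = 3 each), a difference of 0.041 (95% interval -0.11 to 0.20). Over its 5 probe sets 4 differences were above 0, the largest at 0.27 on a probe set that did not pass. None of the 4 measured EPHB genes was called, and their differences ran from -0.039 to 0.063. EPHB2 was not among them, so it was not assessed. EPHA4, an EphA receptor that also binds ephrin-B ligands, read 5.22, 5.22 and 5.08 with BMP9, against 4.79, 4.996 and 5.06 in control. The groups were just apart, and the difference of 0.22 did not pass (limma adjusted p = 0.341). All 4 probe sets of EPHA4 differed upwards, by 0.13, 0.22, 0.30 and 0.51, and in 3 of them the BMP9 arrays lay above the control arrays.

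The other ephrins went both ways. EFNA1, an ephrin of endothelial and epithelial cells, read 5.31, 5.27 and 5.37 with BMP9, against 5.12, 5.07 and 5.04 in control. Its difference of 0.24 did not pass (limma adjusted p = 0.210), although the groups did not overlap on either of its 2 probe sets. EFNA5, an ephrin that repels growing axons in the visual system, stood lower with BMP9 on all 3 of its probe sets, with no overlap between groups, at differences of -0.11, -0.18 and -0.22, and none passed. The single probe sets of EFNA2 (difference 0.20) and EFNA4 (difference -0.22) were dim, at 2.67 and 2.96 with BMP9 and 2.48 and 3.18 in control. EFNA3 differed by 0.077 on its brightest probe set and by -0.071 to -0.20 on its other 4, with the groups apart at -0.20. EFNB1 differed by -0.0054 on its brightest probe set and by 0.14 and 0.23 on its other 2, with the groups apart at 0.23. EFNB3 differed by -0.13 on its brightest probe set and by 0.028 and 0.052 on its other 2. Of the 8 ephrin genes, 1 was therefore called, and the 7 others had limma adjusted p-values from 0.210 to 0.993.

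None of the 9 EPHA receptor genes was called, and 6 of them had differences above 0. EPHA7 stood at 3.56 ± 0.066 with BMP9 and 3.80 ± 0.22 in control (difference -0.24), and EPHA5 at 2.18 ± 0.11 and 2.38 ± 0.14 in the same order (difference -0.20, SD, n = 3 each). Both are receptors best known from brain mapping, and both were dim here. EPHA2, a receptor common in epithelial and tumour cells, differed by 0.12, and EPHA8, a receptor mainly known from the nervous system, by 0.093. EPHA10, a family member that lacks kinase activity, was singled out after its values were seen. A dim probe set of it read 3.98, 3.96 and 4.01 with BMP9, against 3.71, 3.45 and 3.24 in control. The groups were apart, but the difference of 0.52 missed the threshold (limma adjusted p = 0.0948, all probe sets tested), and its other 2 probe sets differed by 0.082 and 0.041.

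The 20 semaphorin genes held no call, and the 2 lowest differences of all guidance genes were in class 3. SEMA3A, the secreted semaphorin that collapses growth cones, read 2.67, 2.75 and 2.71 on the BMP9 arrays, against 3.02, 3.23 and 3.12 on the control arrays. The groups were well apart, yet the difference of -0.41 (SE 0.079, 95% interval -0.59 to -0.24) was just outside the threshold (limma adjusted p = 0.0512). Over the alternatives the adjusted p ran from 0.0455 to 0.523, with 3 of 15 under the threshold. The gene's second probe set, near 2.1 in both groups, differed by -0.033. SEMA3D, another secreted class 3 ligand, read 2.08, 2.10 and 2.18 with BMP9, against 2.52, 2.57 and 2.33 in control (difference -0.35, limma adjusted p = 0.110). Both probe sets lay at levels that the array's background probe sets also reach.

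Class 3 had 5 of 7 genes with a difference below 0 and a median of -0.082. Over all 73 guidance genes 41 differences were above 0 and 32 below, and the direction of a class was not tested. SEMA3B stood at 4.69 ± 0.20 with BMP9 and 4.89 ± 0.081 in control (SD, n = 3 each), a difference of -0.20. SEMA3F, a ligand that acts mainly through NRP2, differed by 0.034. The class 5, 6 and 7 semaphorins, which are bound to the membrane, had 6 of 7 differences above 0, with a median of 0.093. In SEMA6A, SEMA5A and SEMA6C the BMP9 arrays lay above the control arrays, by 0.17, 0.12 and 0.093 on average, and none passed (limma adjusted p 0.380 to 0.614). Another probe set of SEMA6A and the other one of SEMA6C were separated the opposite way, at differences of -0.14 and -0.21, and did not pass either. SEMA6B differed by 0.14 and SEMA6D by -0.13. The 6 class 4 semaphorins ran from -0.13 to 0.10, with SEMA4C at -0.093.

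Of the semaphorin receptors, none of the 9 plexins and neither neuropilin was called. PLXNA1, a signalling partner of NRP1 for class 3 semaphorins, stood at 5.12 ± 0.044 with BMP9 and 5.33 ± 0.24 in control (SD, n = 3 each). Its difference of -0.21 came with a wide control group, in which 1 array read 5.60 and the other 2 read 5.16 and 5.23. The other PLXNA1 probe set differed by -0.29, also with overlapping groups, and did not pass (limma adjusted p = 0.414, all probe sets tested). PLXND1, the plexin of blood vessels, differed by 0.14, and PLXNB3 by -0.011. PLXNB2 (difference 0.070), singled out after its values were seen, differed upwards on all 4 of its probe sets, by 0.041 to 0.088. NRP1, the co-receptor for SEMA3A and for VEGF, stood at 4.41 ± 0.068 with BMP9 and 4.24 ± 0.24 in control on its chosen probe set, a difference of 0.17 (limma adjusted p = 0.569). Of its 6 probe sets, 2 others were separated between the groups, at differences of 0.32 and 0.40 (limma adjusted p 0.179 and 0.183 over all probe sets), and another 2 differed by -0.047 and -0.058. NRP2 differed by 0.072, and 8 of its 9 probe sets had a difference above 0, none over 0.16.

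**Figure D3:**
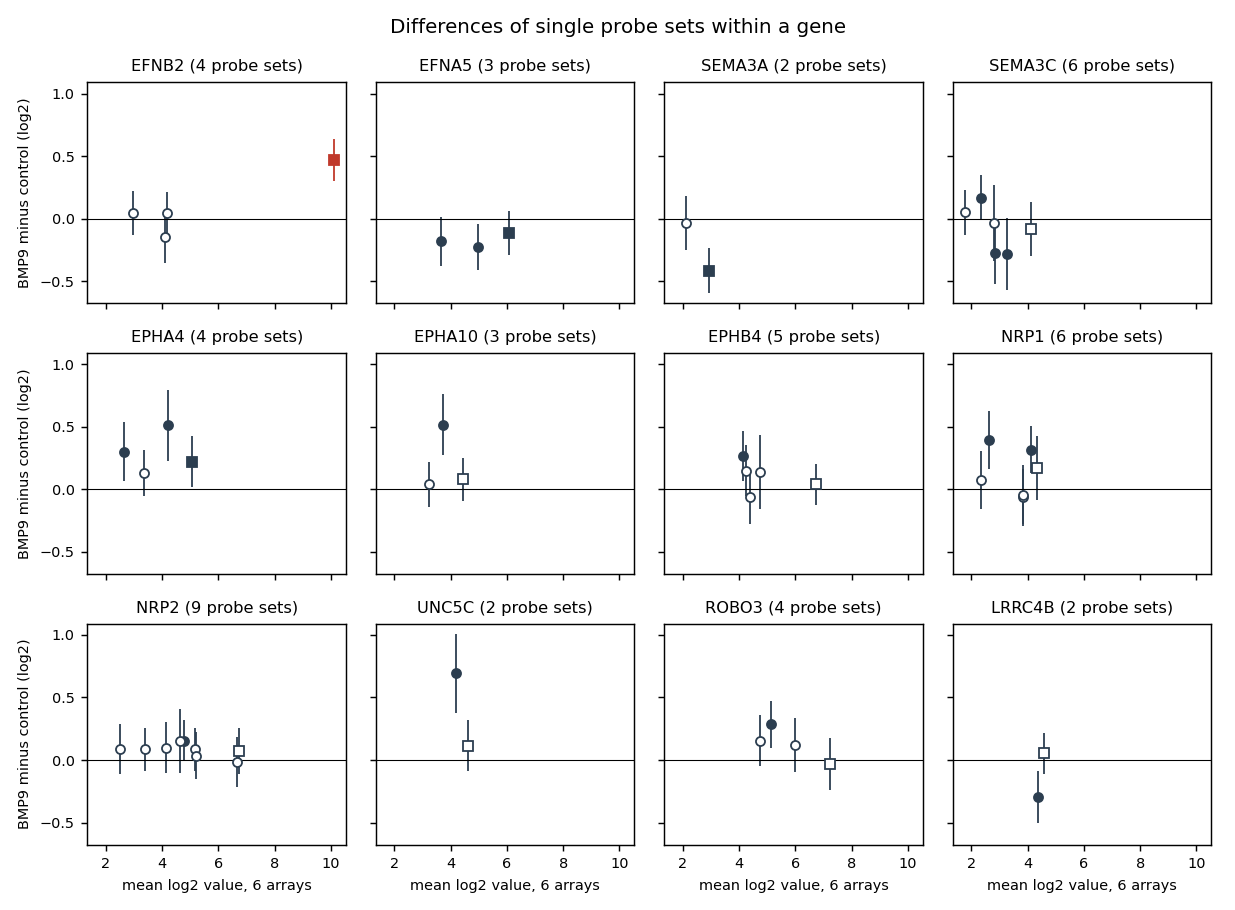
Each panel shows 1 gene and each symbol 1 probe set, with its mean log2 value over 6 arrays (x) and its log2 difference, BMP9 minus control, with the 95% interval (y). The square is the brightest probe set, filled symbols are those whose groups do not overlap, and red marks an adjusted p under 0.05; EFNB2 has 1 bright red square at 0.47 and 3 dim open circles near 0, while the 4 EPHA4 symbols and the 3 EFNA5 symbols each lie on 1 side of 0.

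The SLIT and ROBO genes were not called. SLIT3, a secreted ligand made by many stromal cells, read 3.95, 3.86 and 3.96 with BMP9, against 4.17, 4.03 and 4.03 in control, apart by -0.15 (limma adjusted p = 0.443). SLIT2 differed by 0.085. ROBO4, the endothelial ROBO receptor, read 5.66, 5.66 and 5.67 with BMP9, against 5.57, 5.49 and 5.42 in control, a difference of 0.17 (limma adjusted p = 0.363). Its other 2 probe sets differed by 0.077 and -0.093. ROBO3 differed by -0.032 on its brightest probe set and by 0.12 to 0.29 on its other 3. The netrin genes ran from -0.082 to 0.066, the upper end being NTN3.

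Among the netrin receptors, UNC5B, which is also known from blood vessels, differed by -0.045 at 7.12 ± 0.081 with BMP9 and 7.16 ± 0.042 in control (SD, n = 3 each). UNC5A differed by 0.22, with overlapping groups. UNC5C, singled out after its values were seen, had 2 probe sets, which differed in size of change. One of them read 4.74, 4.54 and 4.32 with BMP9, against 3.58, 3.80 and 4.14 in control, and the groups did not overlap. Its difference of 0.69 was the largest among member probe sets that were not called (limma adjusted p = 0.0871 over all probe sets), and its 95% interval alone among these reached 2-fold (upper end 1.01). The other UNC5C probe set differed by 0.12. With an intensity trend and a robust prior, the first of them passed.

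Agreement in direction among the probe sets of a gene was also counted. Of 38 guidance genes with at least 3 probe sets, 5 (13.2%) had all differences of 1 sign, beside 21.0% of 6995 such genes overall. These were EPHA3, EPHA4, EPHA10 and PLXNB2 above 0 and EFNA5 below 0. At least 3 probe sets with groups apart in the same direction were found in 2 of the 38 (5.26%), EPHA4 and EFNA5, beside 3.17% overall. None of these 5 genes was called on any of their probe sets.

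Other genes of the guidance pathways were taken from 2 lists. Of 49 measured signalling effectors 0 rose and 1 fell, beside 0.232% and 0.452% of all genes, and the median difference was -0.0036. The fallen effector was TRIO, a signalling protein that acts downstream of netrin and other receptors. Its brightest probe set stood at 7.21 ± 0.020 with BMP9 and 7.97 ± 0.084 in control (SD, n = 3 each), a fall of 0.76 on the log2 scale (SE 0.075, limma adjusted p = 0.00107). The other 5 TRIO probe sets differed by -0.22 to 0.12 and did not pass, and the mean over probe sets differed by -0.17 (limma adjusted p = 0.297). ARHGEF11, whose product binds B-class plexins, differed by 0.24, the adaptor gene NCK1 by -0.20 and the actin-severing cofilin gene CFL2 by -0.17. None of these 3 passed (limma adjusted p 0.313 to 0.381).

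Of 28 other guidance cues and receptors, 0 rose and 1 fell, beside 0.232% and 0.452% of all genes, and the median difference was 0.0070. This list was chosen with the earlier result of RGMB known, so the count cannot show an excess. RGMB, a repulsive guidance molecule that is also a BMP co-receptor, stood at 6.71 ± 0.14 with BMP9 and 7.28 ± 0.093 in control (SD, n = 3 each), a fall of 0.57 on this probe set (SE 0.091, limma adjusted p = 0.0211). The other RGMB probe set differed by -0.011 (limma adjusted p = 0.974, all probe sets tested). The call was lost without BMP9 replicate 1 or 2 or control replicate 2 or 3 (limma adjusted p 0.0792 to 0.0949). Its relative RGMA differed by -0.32 on the brightest probe set (limma adjusted p = 0.101). A second RGMA probe set averaged 6.63 with BMP9 and 8.08 in control and was called over all probe sets (difference -1.45, SE 0.11, limma adjusted p = 9.74e-05). All 5 RGMA probe sets had differences below 0. NEO1, the neogenin gene and receptor of both proteins, differed by 0.18 (limma adjusted p = 0.402, named after its value was seen). SDC2, a heparan sulfate proteoglycan gene, differed by -0.32 and the adhesion gene FLRT3 by -0.24, and neither passed.

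**Figure D4:**
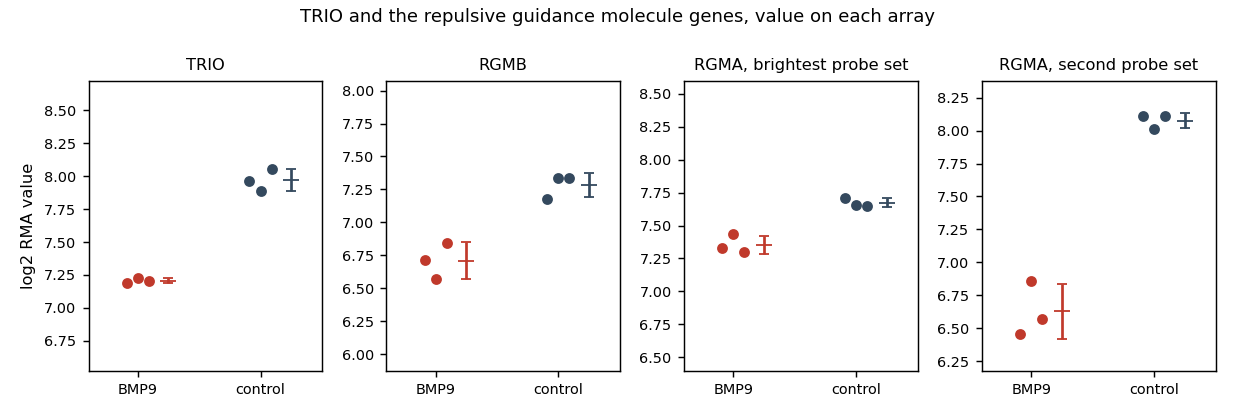
Points are log2 RMA values of single arrays, BMP9 in red on the left and control in dark blue on the right, with the mean ± SD (n = 3) beside each group, for the brightest probe sets of TRIO, RGMB and RGMA and a second RGMA probe set. All panels span the same log2 range; the RGMA probe sets differ by -0.32 and -1.45.

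The directions above hold on the deposited scale. The array's spiked control probe sets read lower on the BMP9 arrays, by 0.20 for the hybridization controls and 0.60 for the poly-A controls. Scaling to the first moved the median of all genes to 0.22 and called 4502 genes higher, 21 of them guidance genes. Scaling to the second moved it to 0.61 and called 17425 higher, including 71 of the 73 guidance genes. LRRC4C and EFNB2 stayed higher under both, at 1.72 and 0.67 with the first and 2.12 and 1.07 with the second. SEMA3A differed by -0.21 with the first and 0.19 with the second, TRIO by -0.56 and -0.16, and RGMB by -0.37 and 0.028.

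**Figure D5:**
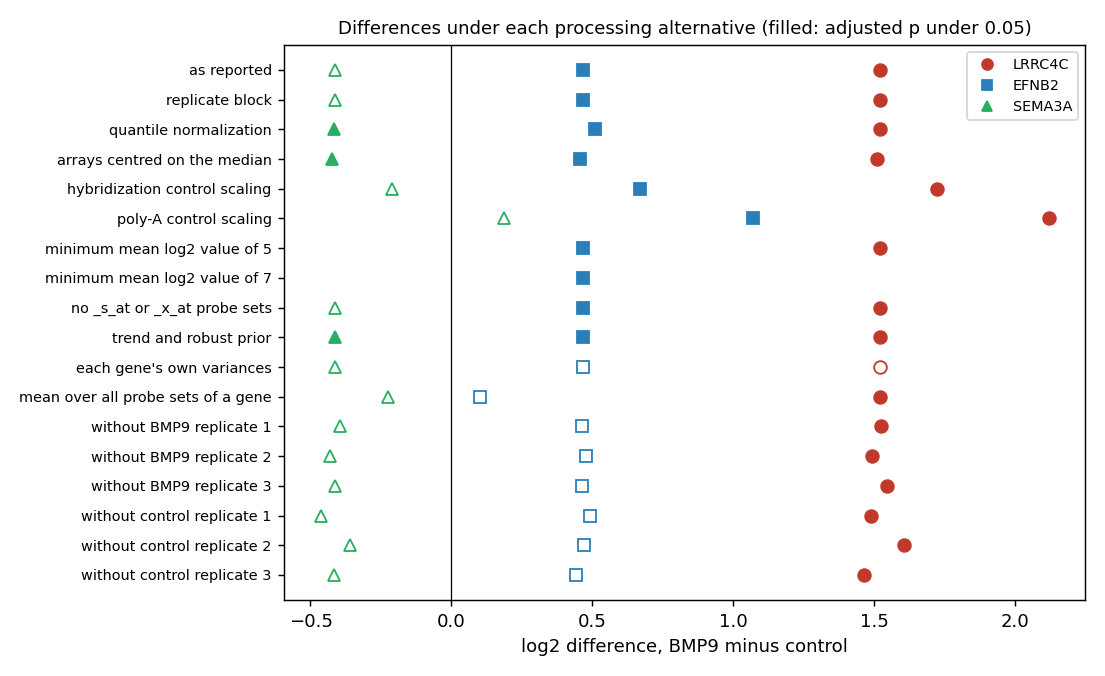
Each row is a processing setting and each symbol the log2 difference, BMP9 minus control, of LRRC4C (red circles), EFNB2 (blue squares) or SEMA3A (green triangles) under it; filled symbols have an adjusted p under 0.05. LRRC4C stays between 1.46 and 2.12 and is open only with each gene's own variances, EFNB2 is open in every setting that leaves out an array, with own variances and with the mean over probe sets, and SEMA3A is filled in 3 settings.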

How the data were processed

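The deposited table gives a log2 value for each of 49395 probe sets on each of 6 arrays; the authors obtained these values by RMA, the robust multi-array average, as listed in the submitters' processing notes. Which program, version and options were used is not given in the sources used here, and the log base was inferred from the range of the values. RMA brings the arrays' distributions close to each other, which hides a shift common to most transcripts. For tests at the gene level, the probe set with the highest mean over the 6 arrays stood for its gene, among those annotated to a single gene; probe sets were also tested one by one. The fit used limma 3.58.1 in R 4.3.3 (lmFit, then eBayes), with group as the only term, and p-values were adjusted by Benjamini and Hochberg's method across every gene, or every single-gene probe set, with a threshold of 0.05. The code was tested on simulated data. The number of arrays limits the precision: the median SE of a gene's difference was 0.087.

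The members, the lists and the alternatives were chosen with earlier results of these data known, among them those of LRRC4C, EFNB2 and RGMB. Named genes were those called, then the smallest p-values up to 25 members, the member with the highest mean of each family, 10 set partners (LRRC4C, LRRC4, LRRC4B, NTNG1, NTNG2, EFNB2, EPHB4, NRP1, NRP2 and PLXND1), up to 4 genes of each other list with the smallest p, and BMP targets. All 73 members matched the RefSeq gene table and 61 the promoter table. A probe set assigned to PLXNB3 and a second gene was left out. Alternatives covered scaling, filters on dim probe sets, shared probes, the variance prior, the choice of probe set, a fold minimum and leaving out each array. Same-numbered replicates did not deviate together (r of 0.0038, 0.046 and -0.021), so no block was used. Figures were drawn with matplotlib 3.10.9.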

Additional observations from a re-analysis of the deposited data

How the results depend on the processing

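LRRC4C kept its direction and its call in 15 of 16 alternatives, with differences of 1.46 to 2.12; the exception was the test that takes variances gene by gene and group by group, without limma's prior (adjusted p = 0.436). EFNB2 was called in 9 of 17. The numbers of genes called higher and lower over the array, 42 and 82, became 102 and 165 with a minimum mean of 5, 97 and 150 with a minimum mean of 7, 103 and 182 with a trend and robust prior, 20 and 45 with at least 1.5-fold, 4502 and 75 with hybridization control scaling and 17425 and 15 with poly-A control scaling. With each gene's own variances 0 genes were called higher and 0 lower after adjustment, and 789 and 729 at an unadjusted p under 0.05, 5 and 2 of them guidance genes. Leaving out 1 array at a time gave 17 to 24 higher and 37 to 54 lower, with 1 guidance gene higher each time, LRRC4C, and 1 to 2 guidance probe sets. The guidance genes called higher were 1 with a minimum mean of 7 (EFNB2), 1 with the mean over probe sets and 1 with at least 1.5-fold (LRRC4C in both), 21 and 71 under the 2 control scalings and 0 with own variances. Guidance probe sets called higher were 49 and 201 under these scalings, 1 with a minimum mean of 7 and 0 with own variances. SEMA3A was the 1 guidance gene called lower with quantile normalization, median centring or the trend and robust prior. With the replicate number as a block 27 genes were called higher, 2 of them guidance genes, and 1 guidance probe set; the numbers of the labels do not pair the samples.

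The 2 control scalings add 1 constant to every difference, so a sign turned wherever a negative difference was smaller in size than that constant. With hybridization control scaling, where the median of all genes was 0.22, SLIT3 became 0.049, SEMA3B 0.0034, EFNB3 0.075, EFNA5 0.087, SEMA6D 0.069, SEMA4C 0.11, UNC5B 0.16, LRRC4 0.16, ROBO3 0.17, NTNG1 0.18, PLXNB3 0.19, CFL2 0.028 and NCK1 0.0044. With poly-A control scaling, where that median was 0.61, SEMA3A became 0.19, SEMA3D 0.25, EFNA4 0.38, EPHA7 0.36, EPHA5 0.40, SLIT3 0.45, SEMA3B 0.40, PLXNA1 0.39, EFNB3 0.47, EFNA5 0.49, SEMA6D 0.47, SEMA4C 0.51, UNC5B 0.56, LRRC4 0.56, ROBO3 0.57, NTNG1 0.58, PLXNB3 0.59, CFL2 0.43, NCK1 0.40, RGMB 0.028, RGMA 0.28, SDC2 0.29 and FLRT3 0.36. Turns under the other settings follow, and their cause was not tested. With the mean over probe sets, SEMA6D became 0.027, SEMA6C -0.060, EPHA8 -0.0056, EFNA3 -0.083, LRRC4B -0.12, UNC5B 0.0040, SEMA3F -0.013, ROBO3 0.13 and CFL2 0.013. Without probe sets that share probes between transcripts, NTNG2 became -0.066, SEMA6C -0.21, SEMA3F -0.030 and CFL2 0.016. Leaving out 1 array gave -0.0053 to 0.065 for SEMA3F, -0.095 to 0.040 for ROBO3, -0.099 to 0.086 for NTNG1 and -0.033 to 0.026 for PLXNB3. Signal over background limits the dim genes: 18 of the 73 had a mean under 4 and 28 a mean of 4 to 5.5. The limit is not confined to them, since background probe sets also reach higher levels, those of LRRC4C included.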
